A study of Homo sapiens with 20 samples.

Results

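The genes described here are the 9 that carry decitabine into a cell, activate it, break it down or set the nucleotide pool it competes with: SLC29A1, SLC29A2, DCK, CDA, DCTD, SAMHD1, RRM1, RRM2 and NT5C2. They were chosen by symbol from the expression table of 36076 genes, where each symbol had a row of its own. The mRNA-seq data came from 6 human lung cancer cell lines (A549, H1299, H1792, PC9, CL1-0 and CL1-5), each with 1 library of cells given phosphate-buffered saline (Mock) and 1 of cells given 100 nM decitabine (DAC) during 72 hours and then kept 3 days without drug. Omni-ATAC libraries, which map open chromatin, covered both treatments of 4 of these lines. No group carried an engineered allele, the Mock and DAC cells of a line came from the same parental culture, and CL1-0 and CL1-5 share an origin, so that lines rather than repeat cultures served as replicates. Every DAC library was taken after the drug-free days, and levels during exposure were not measured.

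Decitabine is a deoxycytidine analogue. The equilibrative nucleoside transporters ENT1 and ENT2, encoded by SLC29A1 and SLC29A2, let nucleosides cross the plasma membrane down their gradient. Deoxycytidine kinase, DCK, adds the initial phosphate, without which the drug cannot reach DNA. Cytidine deaminase, CDA, turns the nucleoside into an inactive uridine form, and dCMP deaminase, DCTD, does the same to the monophosphate. SAMHD1 hydrolyses deoxynucleoside triphosphates, NT5C2 is a cytosolic nucleotidase, and RRM1 with RRM2 forms ribonucleotide reductase, the source of the natural deoxynucleotides. Once in DNA, the drug traps DNA methyltransferases, chiefly DNMT1.

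Depth was 22234485 to 25303899 reads in 10 libraries, and 59735913 (Mock) and 52634234 (DAC) reads in H1299, where most low counts were even, so that reads of H1299 were halved before any counting interval was taken. The lines differed in identity: the summed FPKM of 6 epithelial markers was 0.986 and 3.05 in the Mock and DAC libraries of CL1-0 and between 112 and 3589 in the other Mock libraries, and 4 fibroblast markers summed to 98.1 and 143 FPKM in H1792 against at most 3.56 elsewhere. Of the leukocyte markers, CD3E had no more than 3 reads, or 3 read pairs in H1299, in any of the 12 libraries and PTPRC did not pass 0.0759 FPKM. FPKM values are scaled to gene length and library size, so levels can be set side by side between genes. The summed FPKM of a library still ran from 284496 in Mock H1792 to 416327 in Mock A549, so small differences between lines depend on the scaling.

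None of the 9 genes passed the test of DAC against Mock. In the limma fit over 5 lines (all but H1792), 0.119% of the 22603 genes tested were called higher and 0% lower at a Benjamini-Hochberg adjusted p under 0.05, that is 27 and 0 genes, with 1825 higher and 994 lower at an unadjusted p under 0.05. The median log2 fold change was 0.09 over the 9 genes and 0.07 over all genes tested. CDA was the gene with the most change, DCTD had the most even small decrease, and the others moved in opposite directions in different lines. Each line's own change below rests on 1 library per treatment and has no replicate check. The percent of 22814 genes at least 2-fold from Mock was 22.2% in A549, 17.1% in H1792, 13.4% in PC9, 12.3% in CL1-5, 11.2% in H1299 and 9.71% in CL1-0, against which a 2-fold change of a member in that line is to be read. Among genes averaging 1 FPKM or more, as all 9 members did, the percent was 15.7% in A549, 11.4% in H1792 and 10.7% in H1299. In PC9, CL1-5 and CL1-0 it was 6.82%, 6.54% and 3.84%.

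**Figure D1:**
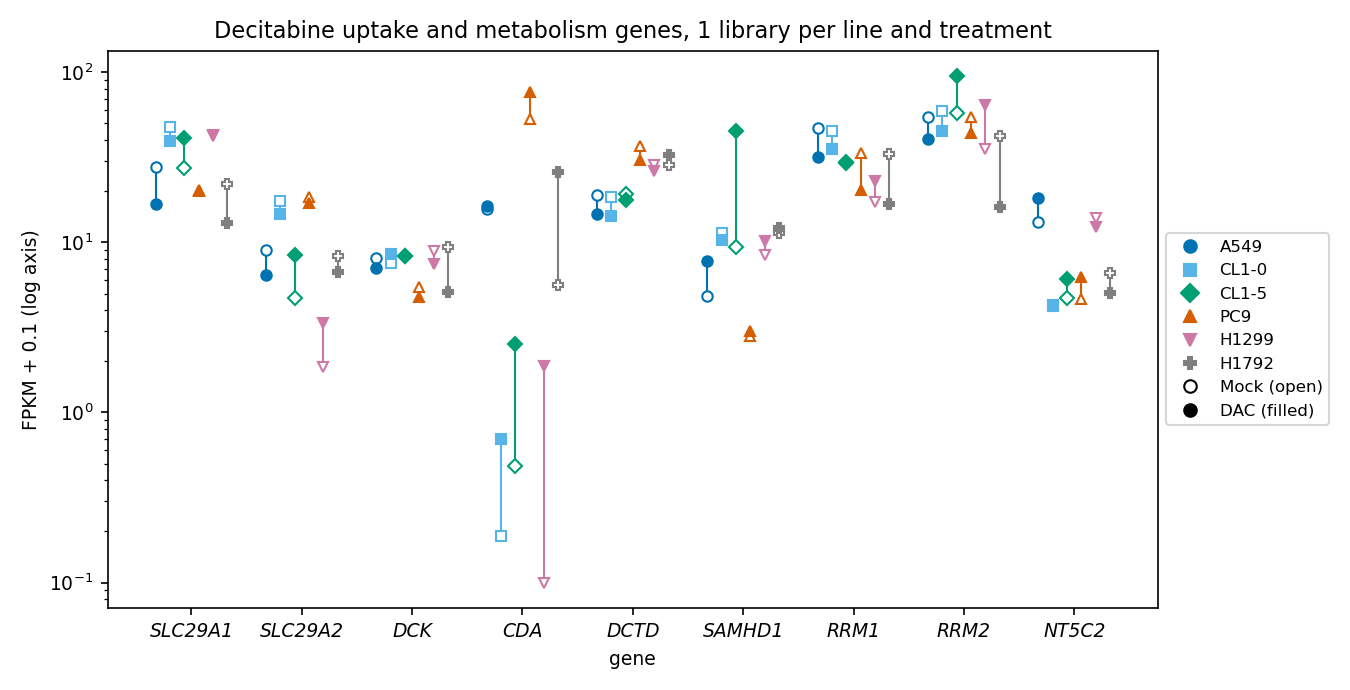
FPKM + 0.1 on a log axis for the 9 genes, with open symbols for Mock and filled symbols for DAC, 1 library each, joined within a line. CDA spans the widest range, from 0 FPKM in Mock H1299 to 76.2 FPKM in DAC PC9, whereas DCK stays between 4.69 and 9.28 FPKM.

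**Figure D2:**
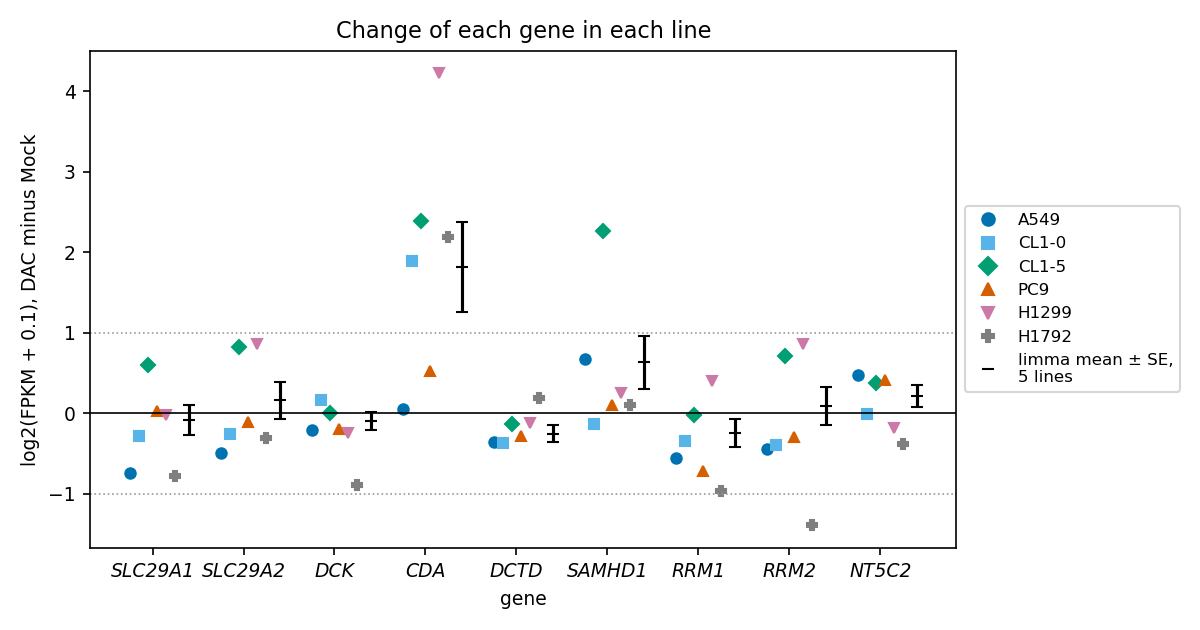
Difference of log2(FPKM + 0.1), DAC minus Mock, for each gene and line (symbols), beside the limma estimate with its standard error over 5 lines (black). Dotted lines mark 2-fold. Of the 9 genes, only CDA lies above 0 in every line, and SAMHD1 in CL1-5 stands apart at 2.26.

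The transporters were expressed in every line. SLC29A1 (ENSG00000112759, GRCh37 chr6:44187290-44201879) was the more abundant, with Mock levels from 19.9 FPKM in PC9 to 47.4 FPKM in CL1-0 and a median of 27.5 FPKM. After DAC it was at 16.6 FPKM in A549, down from 27.8 FPKM, and at 12.8 FPKM in H1792, down from 22.0 FPKM. In CL1-5 it went the other way, from 27.2 to 41.2 FPKM, and PC9 and H1299 were within their counting intervals of no change. The mean log2 fold change was -0.08 (SE 0.19, adjusted p = 0.866, limma, lower in 3 of 5 lines), and its sign turned to 0.04 when the libraries were rescaled to a common sum.

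SLC29A2 (ENSG00000174669, chr11:66129992-66139685) varied more between lines. Its Mock level was 18.3 FPKM in PC9 and 17.3 FPKM in CL1-0, 8.97 FPKM in A549, 8.20 FPKM in H1792, 4.64 FPKM in CL1-5 and 1.76 FPKM in H1299. The lines with the lowest Mock levels were those where the gene was higher after DAC: 8.28 FPKM in CL1-5, a ratio of 1.79 (95% counting interval 1.56 to 2.05), and 3.27 FPKM in H1299, a ratio of 1.86 (1.497 to 2.31). In the other 4 lines it was lower, between 6.34 FPKM in A549 and 16.996 FPKM in PC9, where the counting interval held no change. On average the log2 fold change was 0.16 (SE 0.23, adjusted p = 0.771, limma), and it was -0.01 without H1299 and about 0 (-0.00031) without CL1-5. The genes most like it over the 12 libraries, by Pearson's r of log2(FPKM + 0.1) among 13354 genes, were RAB11FIP4 (r = 0.97), CBX2 (r = 0.95) and ANKRD13B (r = 0.94). The libraries come in pairs from 6 lines, so that such r, here and below, rest on fewer independent values than 12.

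DCK (ENSG00000156136, chr4:71858255-71896631) had the smallest SD of log2 Mock levels of the 9 genes. Mock levels ran from 5.38 FPKM in PC9 to 9.28 FPKM in H1792, a 1.71-fold range, and 3.66% of all genes had a smaller SD. After DAC the levels were 4.69 to 8.44 FPKM. The largest difference was in H1792, from 9.28 to 4.97 FPKM, a ratio of 0.536 (0.472 to 0.607), and in CL1-5 the levels were 8.16 and 8.22 FPKM. Over the 5 lines its mean log2 fold change was -0.10 (SE 0.12, adjusted p = 0.731, limma), and rescaling to a common sum turned it to 0.03. DCK shares 199 exon bases with MOB1B on the same strand.

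CDA (ENSG00000158825, chr1:20915579-20945396), the enzyme that inactivates the drug before its initial phosphorylation, was the gene on which the lines differed most. Its Mock level was 53.1 FPKM in PC9, 15.6 FPKM in A549, 5.53 FPKM in H1792, 0.383 FPKM in CL1-5 and 0.0880 FPKM in CL1-0, where 2 reads were counted, and no read fell in it in H1299. The order of CL1-0 and H1299 is not resolved at this depth, since 3 counts, taken as 6 reads in H1299, correspond to 0.132 and 0.109 FPKM. The SD of its log2 Mock levels exceeded that of 99.0% of genes.

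CDA was higher in the DAC library of 6 of 6 lines, although the counting interval in A549 held no change. The share of all genes with the same direction in every line was not counted, for CDA or for the genes below. In H1299 it went from 0 reads to 90 reads, 1.77 FPKM. This DAC level was 16.2-fold the floor of 3 counts, and the ratio to Mock itself has a lower 95% counting limit of 12.7. In CL1-5 it went from 0.383 to 2.44 FPKM, a ratio of 6.36 (3.22 to 14.0, from 10 and 57 reads), and in CL1-0 from 0.0880 to 0.596 FPKM, a ratio of 6.78 (1.61 to 60.5, from 2 and 17 reads). H1792 had 5.53 and 25.7 FPKM, a ratio of 4.64 (3.84 to 5.65). The lines with the highest Mock levels changed least: PC9 had 53.1 and 76.2 FPKM, a ratio of 1.44 (1.33 to 1.55), and A549 15.6 and 16.3 FPKM, a ratio of 1.04 (0.897 to 1.21). Even after the change CL1-5, CL1-0 and H1299 stayed below the Mock level of the other lines.

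Over the 5 lines the mean log2 fold change of CDA was 1.82 (SE 0.56, unadjusted p = 0.0128, adjusted p = 0.298, limma), so that the difference did not pass the correction over all genes. It remained positive when each line was left out, at 1.22 without H1299 and 2.26 without A549, and with H1792 added the adjusted p was 0.206. The pseudocount of 0.1 and the few reads of the low lines weigh on this mean, which was 0.78 at its lowest over 15 other settings. The 3 genes most like CDA over the 12 libraries were PYCARD (r = 0.95), the adaptor of inflammasomes, IL18 (r = 0.95), a cytokine that inflammasomes mature, and LTBR (r = 0.95), the lymphotoxin beta receptor.

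The 300 bases around the CDA start are printed first of the promoters because CDA was the gene with the most change, and CG dinucleotides, where DNMT1 places methyl groups, are in capitals. The window is GRCh38.p14 chr1:20588847-20589146, plus strand, from RefSeq and ends 50 bases into the transcript, and the same letters lie at GRCh37 chr1:20915340-20915639.
CDA: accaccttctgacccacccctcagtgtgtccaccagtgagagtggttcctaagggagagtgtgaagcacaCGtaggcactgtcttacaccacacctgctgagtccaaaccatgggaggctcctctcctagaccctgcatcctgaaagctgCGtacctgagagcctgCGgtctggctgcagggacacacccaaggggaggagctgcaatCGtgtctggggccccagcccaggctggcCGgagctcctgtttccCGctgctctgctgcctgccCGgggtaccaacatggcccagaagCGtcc
It holds 8 CG dinucleotides, against a median of 14 over 35116 RefSeq promoter windows of the same length, of which 39.3% held fewer. The observed count was 0.28 of that given by its C and G content, against a median of 0.58. Among the windows of the other members at their annotated starts, those of DCK, RRM1 and SAMHD1 held 37, 21 and 22, and the 3 NT5C2 windows held 41, 3 and 0. Methylation itself was not measured in the data analysed here.

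DCTD (ENSG00000129187, chr4:183811213-183839089), which deaminates the monophosphate, was the only member lower in 5 of 5 lines of the fit. Its levels went from 18.8 to 14.7 FPKM in A549, from 18.3 to 14.2 FPKM in CL1-0 and from 36.9 to 30.3 FPKM in PC9. The differences were smaller in CL1-5, from 19.2 to 17.6 FPKM, and in H1299, from 28.3 to 26.1 FPKM. H1792, which is outside the fit, went the other way, from 28.6 to 32.7 FPKM, a ratio of 1.14 (1.08 to 1.21). The mean log2 fold change was -0.25 (SE 0.10, unadjusted p = 0.0406, adjusted p = 0.382, limma), which did not pass the threshold. Its size depended on the scaling: the mean was -0.20 after quantile normalization and -0.13 after rescaling to a common sum. In A549 the log2 change of -0.36 was -0.14 and -0.012 in these settings.

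The enzymes were then set against each other within a line, since DCK and CDA compete for the same nucleoside. The ratio of CDA to DCK, both in FPKM, was 9.87 in Mock PC9, 1.94 in A549, 0.595 in H1792, 0.0469 in CL1-5, 0.0118 in CL1-0, where CDA had 2 reads, and at most 0.0124 in H1299, at the floor. After DAC it was 16.3, 2.35, 5.16, 0.297, 0.0707 and 0.240 in the same lines. It was therefore higher in 6 of 6 lines, with a mean log2 change of 2.27 ± 1.51 (SD over 6 lines; p = 0.03125 by exact permutation of signs, two-sided), where 0.03125 is the smallest p that 6 lines allow. That smallest p needs the same sign in all 6 lines. In A549 the ratio was only 1.21-fold higher, and the counting interval of CDA itself (0.897 to 1.21) held no change there. Adjusted over the 2 ratios tested, p was 0.0625 (Benjamini-Hochberg, exact permutation), and the mean includes H1299 at its floor. With Mock CL1-0 also at its floor (a ratio of at most 0.0176) the mean was 2.17 with the same p. The permutation of signs treats the 6 lines as independent, although CL1-0 and CL1-5 share an origin. With either CL1-0 or CL1-5 left out p was 0.0625 (exact permutation), the smallest that 5 lines allow. CDA was more abundant than DCK in PC9 and A549 before and after DAC and in H1792 only after it.

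SAMHD1 (ENSG00000101347, chr20:35518632-35580296), the triphosphate hydrolase, changed mainly in CL1-5. It went there from 9.34 to 45.3 FPKM, a ratio of 4.85 (4.56 to 5.15). A549 had 4.76 and 7.65 FPKM, a ratio of 1.61 (1.44 to 1.79), and H1299 8.37 and 10.0 FPKM, a ratio of 1.198 (1.11 to 1.30). In H1792, with 11.2 and 11.98 FPKM, and in PC9, with 2.72 and 2.92 FPKM, the counting intervals held no change, and CL1-0 was lower, at 11.2 and 10.2 FPKM. The mean log2 fold change was 0.63 (SE 0.33, adjusted p = 0.459, limma), and 0.22 without CL1-5. SAMHD1 shares 1068 exon bases with TLDC2 on the other strand, and whether reads were counted by strand is not given in the sources used here.

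The list of 13 interferon-stimulated genes moved with SAMHD1. Its median log2 change was 3.22 in A549, 3.04 in CL1-5, 1.31 in H1299, 0.52 in PC9, 0.22 in H1792 and -0.02 in CL1-0. Over the lines r was 0.79 and rho 0.94, given as a description since both come from the same libraries. The signs of SAMHD1 in CL1-0, PC9 and H1792 were not resolved, since each turned under another scaling. A549 and CL1-5 had nearly equal list medians but SAMHD1 changes of 0.67 and 2.26. The summed level of the list was 296.8 FPKM in Mock CL1-5, the highest of the Mock libraries, and 2696 FPKM after DAC, against 79.0 and 298 FPKM in A549. The genes most like SAMHD1 were TAP1 (r = 0.89), a peptide transporter of antigen presentation, IFI6 (r = 0.89), which is also in the list, and THEMIS2 (r = 0.89).

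The SAMHD1 promoter is shown for comparison with that of CDA, again with CG in capitals (RefSeq, GRCh38.p14 chr20:36951659-36951958, minus strand, matching GRCh37 chr20:35580062-35580361).
SAMHD1: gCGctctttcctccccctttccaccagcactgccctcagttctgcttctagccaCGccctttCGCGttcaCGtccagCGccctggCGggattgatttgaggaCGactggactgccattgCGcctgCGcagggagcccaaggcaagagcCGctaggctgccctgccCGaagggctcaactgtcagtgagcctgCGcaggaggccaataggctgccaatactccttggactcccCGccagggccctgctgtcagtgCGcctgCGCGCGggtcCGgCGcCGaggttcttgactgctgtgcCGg
It holds 22 CG dinucleotides and 2 copies of CCAAT, 49 and 38 bases before the start. The CCAAT motif was searched on both strands.

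NT5C2 (ENSG00000076685, chr10:104846942-105037362), the nucleotidase, fell into a high and a low set of lines. Mock levels were 13.8 FPKM in H1299 and 13.03 FPKM in A549, and 4.18 to 6.48 FPKM in the other 4 lines. After DAC it was higher in A549 (18.1 FPKM), PC9 (4.55 to 6.12 FPKM) and CL1-5 (4.62 to 6.01 FPKM), with ratios of 1.39, 1.34 and 1.30. It was lower in H1299 (12.2 FPKM) and in H1792 (6.48 to 4.95 FPKM), and CL1-0 was within its counting interval of no change. Its mean log2 fold change was 0.22 (SE 0.14, adjusted p = 0.530, limma, higher in 3 of 5 lines). Its exons overlap those of CNNM2 and INA on the other strand, by 2724 and 452 bases.

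RRM2 and RRM1 had the highest mean Mock levels of the 9 genes, 50.6 ± 9.65 and 34.1 ± 10.8 FPKM (SD, n = 6 lines). RRM1 (ENSG00000167325, chr11:4115937-4160162), the large subunit, had Mock levels from 17.3 FPKM in H1299 to 46.9 FPKM in A549. After DAC it was at 31.8 FPKM in A549, 35.2 FPKM in CL1-0 (from 44.8), 20.3 FPKM in PC9 (from 33.3) and 16.8 FPKM in H1792 (from 32.9), and these 4 lines were lower. In A549 the log2 change of -0.56 was -0.21 after quantile normalization and after rescaling. CL1-5, at 29.5 and 29.0 FPKM, was within its counting interval of no change, and H1299 was higher, at 22.8 FPKM. RRM1 had a mean log2 fold change of -0.25 (SE 0.17, adjusted p = 0.563, limma), and -0.41 without H1299 (adjusted p = 0.420).

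RRM2 (ENSG00000171848, chr2:10260825-10351851), the small subunit whose supply follows the cell cycle, had similar Mock levels in all lines, from 35.2 FPKM in H1299 to 59.3 FPKM in CL1-0. The DAC levels ran from 16.0 FPKM in H1792 to 94.9 FPKM in CL1-5, so that the range went from 1.68-fold to 5.91-fold. RRM2 was higher in CL1-5, from 57.7 FPKM, a ratio of 1.64 (1.60 to 1.69), and in H1299, from 35.2 to 64.1 FPKM, a ratio of 1.82 (1.76 to 1.88). It was lower in A549, from 54.8 to 40.2 FPKM, in CL1-0, from 59.3 to 45.0 FPKM, and in PC9, from 54.2 to 44.1 FPKM. The log2 change of -0.45 in A549 was -0.088 after quantile normalization and -0.099 after rescaling. The largest decrease was in H1792, from 42.1 to 16.0 FPKM, a ratio of 0.380 (0.360 to 0.400). The opposite directions left a mean log2 fold change of 0.09 (SE 0.23, adjusted p = 0.888, limma), which turned to -0.16 with H1792 added, -0.11 without H1299 and -0.07 without CL1-5.

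The proliferation list of 12 genes (MKI67, TOP2A, CDK1 and others) moved with both subunits. Its median log2 change was 0.47 in H1299 and 0.28 in CL1-5, where 12 of 12 genes were higher, -0.01 in CL1-0, -0.47 in PC9, -0.51 in A549 and -0.97 in H1792, where 12 of 12 were lower. Over the 6 lines r was 0.94 for RRM2 and 0.97 for RRM1, and rho was 0.94 for both, as a description over lines whose values share libraries. For SLC29A2 r was 0.83 and rho 0.89. The list in CL1-0, with 6 genes higher and 6 lower, and SLC29A2 in PC9 had no resolved sign. The part of cell-cycle activity in these differences was not tested. The ratio of RRM2 to RRM1 was higher after DAC in 4 of 6 lines, from 1.96 to 3.27 in CL1-5 and from 1.28 to 0.951 in H1792 at the extremes, with a mean log2 change of 0.21 ± 0.42 (SD over 6 lines; p = 0.28125 by the same exact permutation test).

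The RRM2 promoter is shown for its repeated CCAAT boxes, the binding sequence of NF-Y at many cell-cycle promoters, which are in capitals (RefSeq, GRCh38.p14 chr2:10122489-10122788, plus strand, matching GRCh37 chr2:10262616-10262915).
RRM2: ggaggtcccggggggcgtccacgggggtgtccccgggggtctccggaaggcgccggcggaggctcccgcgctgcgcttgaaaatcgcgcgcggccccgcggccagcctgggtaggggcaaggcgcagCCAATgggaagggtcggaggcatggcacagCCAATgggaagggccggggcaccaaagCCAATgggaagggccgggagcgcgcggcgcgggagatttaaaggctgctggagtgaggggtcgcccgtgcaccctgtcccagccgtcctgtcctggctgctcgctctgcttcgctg
The 3 copies begin 123, 93 and 66 bases before the start. The window of another RefSeq start of RRM2, chr2:10122318-10122617, held 1 copy, 249 bases before that start. RRM1 has 1 copy, 28 bases before its start, and none was found in the windows of CDA, DCK, DCTD, SLC29A1 or NT5C2, searched on both strands. At least 1 copy of CCAAT was in 34.6% of all windows, and the share with repeated copies was not counted. No window of SLC29A2 was at hand.

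The neighbouring enzymes and transporters gave the setting of the pathway. Of 38 other genes of nucleoside transport, phosphorylation, nucleotide breakdown and pyrimidine synthesis and the drug's targets, 34 were tested and none was called, with 17 above and 17 below 0 and a median log2 fold change of 0.00, against 0.07 for all genes. At an unadjusted p under 0.05 there were 4 higher (TYMP, DNMT3B, CMPK1 and SLC28A2) and 4 lower (NT5M, NT5C, CTPS2 and DHODH), named after their values were seen, beside 8.07% and 4.4% of all genes tested. TYMP, thymidine phosphorylase, was past 2-fold higher in 5 of 6 lines, from 0.745 to 7.01 FPKM in A549, from 16.1 to 60.1 FPKM in CL1-5 and from 14.1 to 39.2 FPKM in H1792 among them (mean log2 fold change 1.61, SE 0.37, adjusted p = 0.204, limma). It shares 361 exon bases with SCO2 and 323 with ODF3B on the same strand. NT5M, the mitochondrial deoxynucleotidase, was lower in 6 of 6 lines and past 2-fold in 3, with 7.40 and 2.04 FPKM in A549 (mean log2 fold change -0.97, SE 0.25, adjusted p = 0.260, limma). DNMT1, the target, had Mock levels from 14.2 FPKM in A549 to 33.0 FPKM in CL1-0 and a mean log2 fold change of 0.09 (SE 0.13, adjusted p = 0.785, limma).

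The levels were next set beside the size of each line's response, taken as the percent of genes past 2-fold in either direction given above, which was largest in A549 (22.2%) and smallest in CL1-0 (9.71%). Of the 9 members, none passed 2-fold in A549 or PC9. CDA alone did in CL1-0 and in H1299, CDA and SAMHD1 did in CL1-5, and CDA and RRM2, the latter lower, did in H1792. The share past 2-fold in A549 was 15.7% among genes averaging 1 FPKM or more, and 9 genes are too few to set none apart from it. SAMHD1 in A549 reached 1.01 on the log2 scale after rescaling to a common sum. The median change over the 9 genes in A549 was -0.36, against 0.08 for all genes. It was -0.14 after quantile normalization, against -0.01 for all genes, and -0.01 after rescaling, against 0.36.

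The Mock level of DCK had little order with the response (r = 0.18, rho = 0.14), since H1792 and H1299, the lines with the most DCK, ranked 2 and 5 by response. SLC29A1 ran the other way (r = -0.51, rho = -0.60): CL1-0 and H1299, with the most transporter, had the smallest responses, and without these 2 lines r was 0.38. CDA had the highest rank correlation of the 9 (r = 0.67, rho = 0.77). PC9, A549 and H1792, the lines with CDA above 5 FPKM in Mock, were the 3 with the largest responses. Without PC9 and H1299, the lines farthest from the median, r was 0.98 over the few lines left. By the same rule, without H1299 and A549, r went from 0.49 to 0.95 for NT5C2 and from 0.44 to -0.58 for RRM1. Among 22634 genes whose Mock level varied, 11.0% had a rho at least as far from 0 as that of CDA. For the other members rho lay between -0.49 and 0.37.

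These are descriptions over 6 lines, and the Mock library of a line enters both measures. With a pseudocount of 1, or when only genes averaging 1 FPKM or more were used, H1299, with no CDA reads in Mock, moved to rank 3, at 3.99% and 10.7% of genes, and the split of the lines by CDA was lost.

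**Figure D3:**
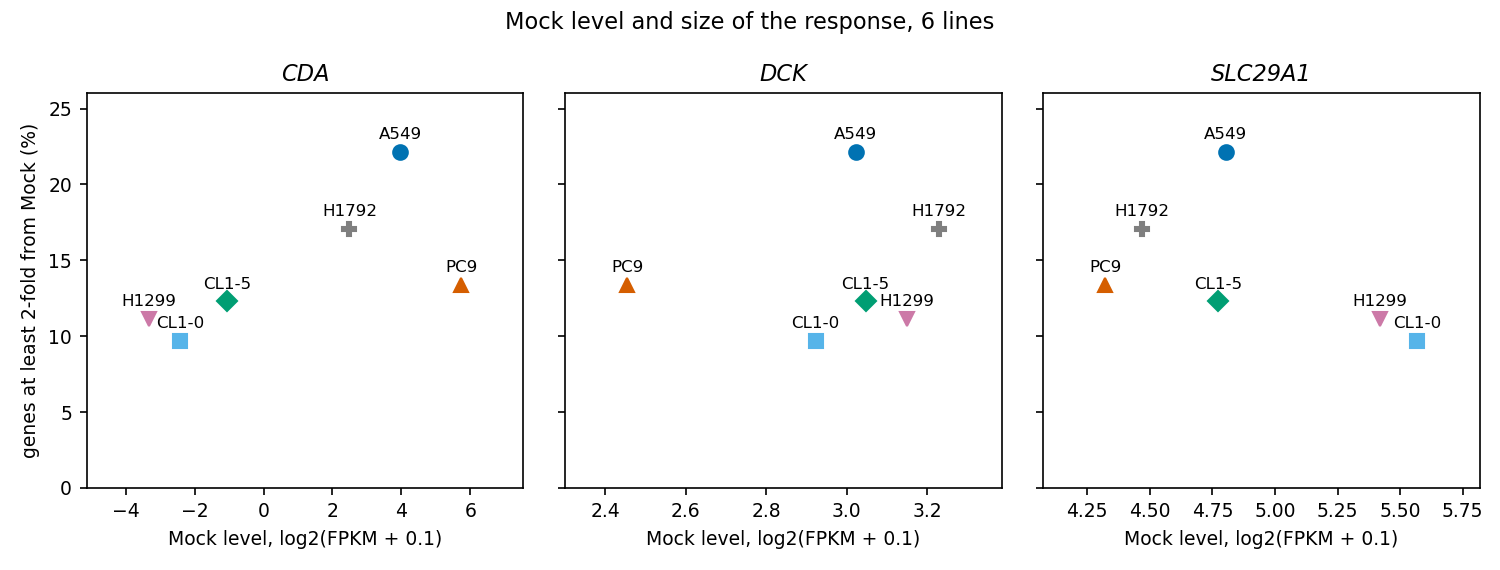
Percent of genes at least 2-fold from Mock in each of 6 lines against the Mock level of CDA, DCK and SLC29A1 on the log2(FPKM + 0.1) scale, 1 symbol per line. A549 is highest at 22.2% with 15.6 FPKM of CDA, and CL1-0 lowest at 9.71% with 0.0880 FPKM.

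Chromatin at the promoters was read from the ATAC peak lists of A549, H1299, CL1-5 and PC9. The lists of the libraries labelled CL1-5 carry the name PC9 inside and those labelled PC9 carry the name CL1-5, so that each library is named here by its label. The mRNA went with the names inside the lists. Of 1370 genes with a peak over the start in the Mock library labelled CL1-5 and not in that labelled PC9, 73.4% had the higher Mock mRNA level in PC9, and of 1185 genes with the reverse, 67.1% had it in CL1-5. A line drawn from either label is therefore uncertain. All 9 genes had a peak within 3000 bp of their start in 8 of 8 libraries, and 8 of them, all but CDA, had a peak over the listed start in each. Such peaks were common: per library 13661 to 15810 genes had a peak within 3000 bp and 11383 to 12442 had a peak over the listed start. Ranked among the genes of the same list by fold enrichment over background, DCK (68.5 to 90.4) and SAMHD1 (73.7 to 88.3) had the highest percentiles and SLC29A1 (18.4 to 28.3) and CDA (3.77 to 45.7) the lowest. For SAMHD1 the library labelled CL1-5 gave a percentile of 85.0 in Mock and 84.1 in DAC, and the one labelled PC9 gave 82.0 in Mock and 80.6 in DAC.

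CDA was the only member without a peak over the listed start in every library. A549 had a peak over the start in Mock (chr1:20915283-20916303, fold enrichment 3.88) and DAC (chr1:20915264-20915621, 4.50). The library labelled CL1-5 had the strongest, at 4.95 in Mock (chr1:20915210-20916341) and 4.16 in DAC, whereas the Mock mRNA level of CDA was 0.383 FPKM in CL1-5 and 53.1 FPKM in PC9, so that CDA too went with the names inside the lists. In the library labelled PC9 the Mock list held only a peak that ends 1168 bp before the listed start, and the DAC list added a peak over the start (chr1:20915344-20916315, fold enrichment 3.15, q = 0.0059), which covers nearly all of the window printed above. H1299 had a weak peak over the listed start in Mock (chr1:20915051-20915533, fold enrichment 2.73, q = 0.053) and a weak peak in DAC that began 35 bp after it (chr1:20915479-20915717, 2.46, q = 0.050), with a peak further upstream in DAC (chr1:20913518-20913953, 2.67, q = 0.023).

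A peak over the listed start in the DAC list and none in the Mock list was thus found for CDA in the library labelled PC9, whose lists carry the name CL1-5, and for none of the other 8 genes in any of the 4 pairs. The reverse, a peak over the listed start in Mock and none in DAC, was found for CDA in H1299. Among 15523 genes with such a peak in any library, the share gaining it was 8.07% in the library labelled PC9, 7.96% in A549, 6.6% in H1299 and 5.95% in the library labelled CL1-5. The start listed for CDA lies 146 bases before the GENCODE start, chr1:20915590. With GENCODE starts CDA instead gained a peak in H1299, so that the H1299 call turned with the choice of start, while the gain in the library labelled PC9 held with both. No other member gained a peak. Of 23111 genes, 6.36% gained such a peak in H1299, 8.26% in the library labelled PC9, 7.97% in A549 and 7.57% in the library labelled CL1-5. There was 1 ATAC library per line and treatment, with no replicate check, and DAC lists held more peaks than Mock lists in each of the 4 pairs.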

How the data were processed

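mRNA-seq covered 12 libraries and Omni-ATAC 8, 1 per line and treatment, and groups were taken from the sample labels. The authors trimmed reads with Trimmomatic, mapped them with RSEM, which ran bowtie2, to hg19, counted genes over GENCODE and deposited FPKM values from DESeq2 1.24.0, with the mean normalized count as a signal column. The submitters' processing notes also list TopHat2 2.1.1. ATAC peaks were deposited by the authors as MACS2 2.2.5 broad peaks annotated with ChIPseeker 1.20.0, with the fold enrichment as a ratio over background and the −log10 q value of each peak. The deposited table's columns of the authors' own comparison (fold changes and p-values) were not used. Of the 591387 peaks, none ended past its GRCh37 chromosome, leaving out 1380 on other sequences.

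Dividing the normalized signal of a gene by the smallest step of its library gave whole reads for all values (tolerance 0.01). FPKM were tested with limma 3.58.1 (R 4.3.3) on log2(FPKM + 0.1) with an intensity trend, the cell line as block and Benjamini-Hochberg adjustment over 22603 genes (those averaging 0.1 FPKM or more across the 10 libraries), so fold changes of low genes are understated. H1792, outside the study's 5-line comparison, entered as an alternative. Deviations of Mock and DAC libraries of the same line correlated at 0.731 to 0.900 over genes, and other pairs at most at 0.115, so the lines pair the libraries. Intervals of ratios are 95% Clopper-Pearson intervals of reads and cover counting error only. Ratios of 2 genes used an exact sign-flip test (SciPy), with H1299 at the floor where CDA had no read. Gene positions are from GENCODE on GRCh37 and promoter windows, 13 for 8 of the 9 genes, from RefSeq. The fit was tested on simulated data. The genes named are the 9 members, pathway genes called or past 2-fold in the same direction in at least 3 of 6 lines, DNMT1, and the 3 genes most correlated with each member whose Mock level varied at least 4-fold. Further pathway genes (those at an unadjusted p under 0.05, TK1, TYMS and RRM2B) were named after their values were seen. The members and lists were chosen with earlier results of these data known. Alternatives are given in the closing section.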

Additional observations from a re-analysis of the deposited data

Results flagged for a closer look

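Each gene's 6 Mock levels, 6 DAC levels and 6 changes were screened for a line far from the others, 27 groups in all, of which chance flags about 1 in 20. A single group stood out: the change of SAMHD1 in CL1-5, 2.26 on the log2(FPKM + 0.1) scale, whose gap to the nearest line, A549, was 0.664 of the whole range, above the 95% critical value of Dixon's test for 6 samples.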

How the results depend on the processing

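No member was called in any of 15 other settings of the limma fit, and 127 of 135 member estimates kept their direction. The 8 that turned were small: SLC29A1 at 0.041 after rescaling to a common sum and 0.081 without A549 (range -0.25 to 0.081 with a line left out), SLC29A2 at -0.00031 without CL1-5 and -0.0087 without H1299 (-0.0087 to 0.33), DCK at 0.026 after rescaling, and RRM2 at -0.16 with H1792 added, -0.070 without CL1-5 and -0.11 without H1299 (-0.11 to 0.22). The cause was not tested. Rescaling moved the median of all genes from 0.07 to 0.17. Genes called higher numbered 53 with H1792, 10 with no replicate block, 0 with pseudocount 1, 2 without a filter, 17 after quantile normalization, 6 without the trend, 169 with voom on recovered reads and 0 to 22 with a line left out, against 27, with 0 without A549 or CL1-5, 5 without CL1-0 and 12 without PC9. Genes called lower numbered 1 with voom and 0 to 1 with a line left out. The pairing by line raised the calls from 10 to 27 and changed no call of a member. The CDA/DCK change was 1.87 to 2.67 with a line left out, where 5 lines cannot reach the threshold (exact permutation p = 0.0625), 2.11 with a pseudocount and 2.94 after quantile normalization. Of 36 response ranks, 11 moved: CL1-0 to 5 by median change or genes higher, CL1-5 to 5 with pseudocount 1 or a 1 FPKM limit and to 6 by genes higher, PC9 to 4 and H1299 to 3 in the former settings, and H1299 to 6 by median change and 4 by genes higher. The number of members with a promoter peak was 8 or 9 of 9 in every library and setting, and so near its limit says little. The listed and GENCODE starts, and the floor for CL1-0, were settings added after seeing the data. Within lines, 61 of 162 member changes moved beyond their counting interval under another pseudocount or scaling and 9 took the other sign. Depth limits CDA in CL1-0 and Mock H1299.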

Other observations

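TK1 and TYMS, named after their values were seen, had the signs of RRM2 in each line. RRM2B, the other small subunit of ribonucleotide reductase, did not, and was also named after its values were seen. It had 7.71 FPKM in Mock and 18.5 FPKM in DAC in A549, and 11.1 and 8.62 FPKM in CL1-5, both opposite in sign to RRM2, the same sign as RRM2 in H1792, and no resolved sign in PC9. TK1, thymidine kinase of dividing cells, went from 44.6 to 69.0 FPKM in CL1-5 and from 41.0 to 66.3 FPKM in H1299, and was lower in the other 4 lines, with 151.6 and 107.5 FPKM in A549. TYMS, thymidylate synthase, went from 27.1 to 44.1 FPKM in CL1-5 and from 24.7 to 39.9 FPKM in H1299, and from 35.4 to 20.3 FPKM in H1792.

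DNMT3B, a de novo methyltransferase that decitabine also traps, was higher in 6 of 6 lines, by 2.61-fold in H1299, 2.56-fold in A549 and 1.16-fold in H1792 (mean log2 fold change over 5 lines 0.98, SE 0.16, adjusted p = 0.110, limma). SLC28A2, a concentrative nucleoside transporter, was expressed above 1 FPKM only in H1299, where it went from 7.54 to 48.7 FPKM.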
